A study of Mus musculus with 41 samples.

Results

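The collagen gene family was followed across sorted cells of the mouse small intestine, in polyA+ RNA-seq of 41 libraries from 15 groups. Members were taken by name, with earlier results of these data known. Every gene whose symbol reads Col, a number, the letter a and a number with no suffix was included. That rule gave 44 of the 23366 symbols counted. At embryonic day 11.5 (E11.5) the groups were Lgr5-EGFP+ EpCAM+ epithelial cells labelled Id2KO, EpCAM+ cells labelled Id2KO, wild-type (wt) EpCAM+ cells, and EpCAM- mesenchyme labelled Id2KO or wt, with 3 libraries each. At E13.5 the groups were Lgr5-EGFP+ EpCAM+ and EpCAM+ cells without a knockout label, with 4 libraries each. At postnatal day 60 there were 4 libraries of Lgr5+ stem cells and 2 of each of 7 groups of Lgr5+ stem cells from parts of the small intestine: anterior, middle and posterior, each labelled Id2KO and wt, and posterior Tomato+ Lgr5+ cells labelled Id2KO. All mice were of mixed C57BL/6 CD1 background. Id2 encodes a protein that binds bHLH transcription factors and keeps them off DNA. The labels give neither its knockout allele nor the driver of Tomato. Each library was made from 250 sorted cells after 15 cycles of amplification. The E11.5 libraries came from single embryos and the E13.5 libraries from pools of 6 to 12 embryos, and for adults the number of animals per library is not given in the sources used here.

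Collagens are secreted or membrane proteins whose chains wind round each other into a triple helix. In the developing gut, mesenchymal cells are known as the main makers of fibrillar collagens, and type IV collagen forms the network of the basement membrane on which the epithelium sits. By class, the 44 genes comprised 11 fibrillar, 6 basement membrane network (type IV), 6 beaded filament (type VI), 1 anchoring fibril, 3 short-chain network, 9 fibril-associated, 4 transmembrane and 2 multiplexin genes, and 2 others.

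Promoter windows are shown for Col4a1 and Col27a1, the collagen genes with the highest level per kilobase in E11.5 and E13.5 EpCAM+ cells, and for Col4a2. Col4a1 and Col4a2 encode the chains of the common type IV trimer and start next to each other on opposite strands, and Col27a1 encodes a fibrillar collagen. Each window runs from 250 bases before to 50 bases after the start of the gene in RefSeq on GRCm38.p6, 5′ to 3′ on the strand of the gene, whereas the counts were made on mm9. Col4a1 is at chr8:11312777-11313076 on the minus strand and Col4a2 at chr8:11312555-11312854 on the plus strand. Capitals in both mark the 78 bases that the windows share. Col27a1 is at chr4:63215162-63215461 on the plus strand, and capitals there mark matches to GGGCGG on either strand.
Col4a1: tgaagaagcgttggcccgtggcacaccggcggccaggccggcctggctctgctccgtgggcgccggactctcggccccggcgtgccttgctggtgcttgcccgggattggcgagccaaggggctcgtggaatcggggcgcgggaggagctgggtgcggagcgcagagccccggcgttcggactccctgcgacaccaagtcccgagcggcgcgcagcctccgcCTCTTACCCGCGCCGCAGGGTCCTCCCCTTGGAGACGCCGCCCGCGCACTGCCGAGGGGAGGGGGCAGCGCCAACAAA
Col4a2: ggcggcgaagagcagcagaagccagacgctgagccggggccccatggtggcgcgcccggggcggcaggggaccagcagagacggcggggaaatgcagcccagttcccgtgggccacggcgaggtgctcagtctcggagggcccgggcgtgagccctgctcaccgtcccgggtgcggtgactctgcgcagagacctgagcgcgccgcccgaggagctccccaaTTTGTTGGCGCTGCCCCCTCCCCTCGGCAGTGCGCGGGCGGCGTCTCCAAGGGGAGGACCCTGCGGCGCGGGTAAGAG
Col27a1: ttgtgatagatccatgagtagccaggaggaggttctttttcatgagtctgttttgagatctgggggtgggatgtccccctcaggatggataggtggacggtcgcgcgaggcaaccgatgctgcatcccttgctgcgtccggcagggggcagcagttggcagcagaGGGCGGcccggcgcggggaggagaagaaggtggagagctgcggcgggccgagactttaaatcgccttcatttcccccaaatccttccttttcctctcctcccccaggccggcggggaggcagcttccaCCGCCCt

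The first bases of Col4a1 and Col4a2 lay 21 bases apart on chromosome 8. Col4a5 and Col4a6, which encode chains of another type IV trimer, form a second head-to-head pair on chromosome X with 1343 bases between their first bases and no shared window. Windows were found for 35 of the 44 members, 38 in all because some genes had more than 1 start. GGGCGG occurred on either strand in 60.5% of the collagen windows and in 35.7% of all 32851 windows, CCAAT in 34.2% against 37.4%, and TATAAA in 13.2% against 13.6%. All 3 motifs were searched on both strands, and a match describes the letters only. The Col4a1 and Col4a2 windows each held CCAAT and GGGCGG, the Col27a1 window held GGGCGG without the others, and the window of Col3a1, a fibrillar collagen gene of mesenchyme, held TATAAA and no CpG. The windows of Col4a1, Col4a2 and Col27a1 held 37, 33 and 18 CpG sites, against a median of 11.5 over collagen windows and 7.0 over all windows.

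Gene counts per library ranged over 13596192 to 51212645, so 3 counts corresponded to 0.0586 to 0.221 counts per 1000000 gene counts of a library (CPM). Id2 was at 108 to 182 CPM in E11.5 epithelial libraries labelled Id2KO, against 5308 to 6600 CPM in wt EpCAM+ libraries (edgeR, log2 fold change -5.12 ± 0.19 SE, adjusted p = 1.5e-07 for EpCAM+ cells). In the adult parts of the intestine Id2 was not lower in libraries labelled Id2KO (98.9 to 199 CPM) than in those labelled wt (64.1 to 125 CPM), so those are called by their labels. Epcam was at 1401 to 1775 CPM in the E11.5 epithelium and at 1.93 to 7.54 CPM in the mesenchyme. C1qa, a macrophage gene, exceeded 100 CPM in Id2KO EpCAM+ replicates 1 and 2 and wt EpCAM+ replicate 1. Fits without these libraries rest on replicate 3 alone for Id2KO EpCAM+ cells. The summed level of 4 red cell genes was 24648 to 59524 CPM in Id2KO mesenchyme and 221718 to 268406 CPM in wt mesenchyme. Both Xist (251 to 575 CPM) and Ddx3y (18 to 25.8 CPM) were present in each wt EpCAM+ library, and likewise in each wt mesenchyme library (Xist 152 to 227 CPM, Ddx3y 9.23 to 16.3 CPM), although the labels give 1 embryo each. In the E11.5 epithelial and mesenchymal groups labelled Id2KO, each replicate 1 had Xist at 318 to 874 CPM and Ddx3y at 0.0909 to 0.171 CPM. Replicates 2 and 3 of those groups had Xist at 0.386 to 1.48 CPM and Ddx3y at 121 to 192 CPM.

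Summed over all 44 genes, collagen transcripts were most abundant in the E11.5 mesenchyme, at 1938 ± 303 CPM in Id2KO mesenchyme and 1249 ± 197 CPM in wt mesenchyme (SD, n = 3 each). The E11.5 epithelium had 368 ± 40.1 CPM in Id2KO Lgr5+ cells, 207 ± 28.3 CPM in Id2KO EpCAM+ cells and 283 ± 38.2 CPM in wt EpCAM+ cells (n = 3 each). At E13.5 the sum was 158 ± 26.3 CPM in Lgr5+ cells and 171 ± 37.7 CPM in EpCAM+ cells (n = 4 each). Adult Lgr5+ cells had 19.1 ± 5.51 CPM (n = 4), and the adult groups by part of the intestine had means of 4.66 to 14.7 CPM (n = 2 each). The number of members with a mean of at least 1 CPM was 29 in each mesenchyme, 21, 13 and 18 in Id2KO Lgr5+, Id2KO EpCAM+ and wt EpCAM+ cells, 16 and 14 in E13.5 Lgr5+ and EpCAM+ cells, and 4 in adult Lgr5+ cells. The sum in wt EpCAM+ cells was 22.7% of that in wt mesenchyme (SD 4.7, propagated), or 17.1% with red cell genes taken out of the totals. In bulk libraries such as these, fewer cells of a type and less RNA per cell cannot be told apart.

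The make-up of the sum differed between tissues. Fibrillar genes made up 72.4% of collagen CPM in Id2KO mesenchyme and 72.7% in wt mesenchyme, and type IV genes 6.92% and 7.76%. In the E11.5 epithelium type IV genes made up 53.5% in Id2KO Lgr5+ cells, 51.4% in Id2KO EpCAM+ cells and 46.6% in wt EpCAM+ cells. The multiplexin genes, almost wholly Col18a1, made up 13.3%, 5.26% and 11.6% of the sum in those groups. At E13.5 fibrillar genes made up 55.6% in Lgr5+ and 62.7% in EpCAM+ cells, and Col27a1 was the largest of them in both. In adult Lgr5+ cells the largest class was the fibril-associated one, with 35.9%.

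Of the 44 members, 25 had their highest group mean in a mesenchyme group, 23 of them in Id2KO mesenchyme. Red cell transcripts took a larger part of the CPM in wt mesenchyme, and edgeR called no member between Id2KO and wt mesenchyme. A further 9 peaked in Id2KO Lgr5+ cells, among them Col4a1, Col4a2, Col4a5, Col4a6, Col18a1 and Col2a1. Adult Lgr5+ cells held the highest mean of Col4a3, Col10a1 and Col16a1, E13.5 Lgr5+ cells that of Col4a4 and Col15a1, and E13.5 EpCAM+ cells that of Col27a1. In 8 genes no group reached a mean of 1 CPM: Col5a3, Col6a6, Col8a2, Col10a1, Col15a1, Col17a1, Col19a1 and Col28a1. None was at 0 in every library.

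**Figure D1:**
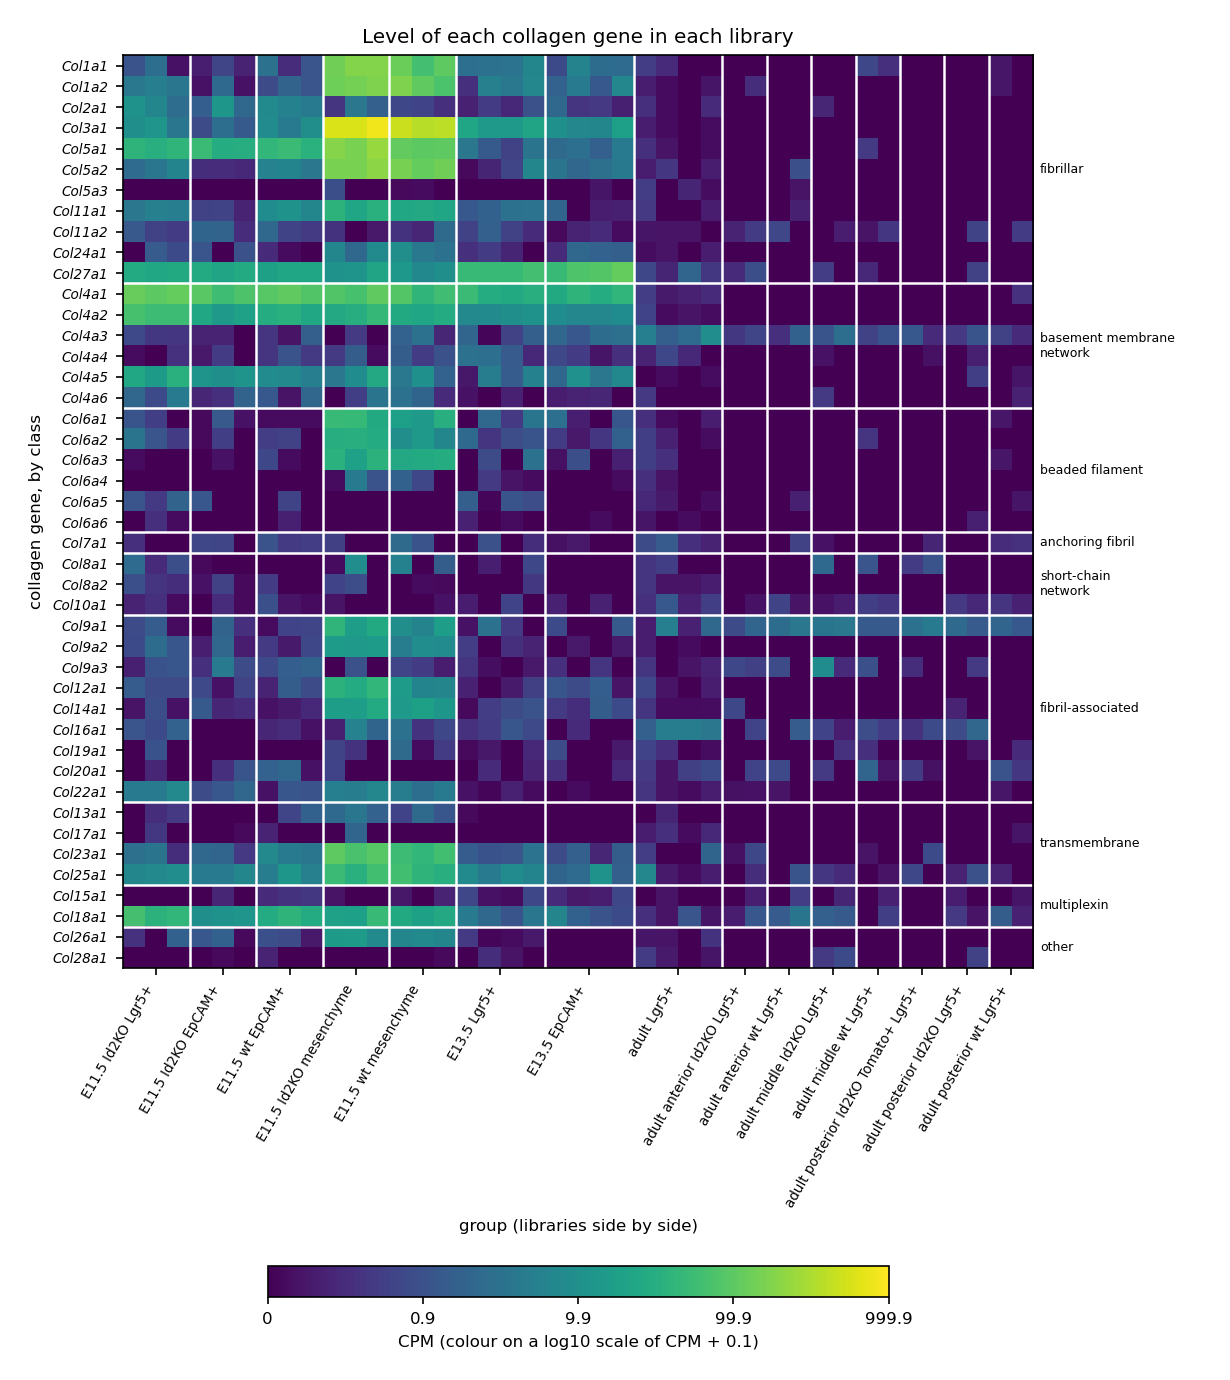
Level of each of the 44 collagen genes (rows, by class) in each of the 41 libraries (columns, by group), as CPM on a log10 colour scale of CPM + 0.1. Genes such as Col3a1, Col5a2, Col6a1 and Col23a1 are brightest in the 6 mesenchyme libraries, Col27a1 is brightest at E13.5, Col4a1 and Col4a2 are bright in all embryonic groups, and adult columns are dark apart from a few genes such as Col9a1.

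Compared per kilobase of merged exon length, which allows genes to be set side by side, the leading gene changed with the tissue. Col4a1 led in the E11.5 epithelium, at 14.6 ± 1.23 CPM per kb in Id2KO Lgr5+, 10.1 ± 2.49 in Id2KO EpCAM+ and 12.4 ± 1.53 in wt EpCAM+ cells (SD, n = 3 each). Col3a1, which encodes type III collagen, led in mesenchyme at 68.3 ± 13.5 CPM per kb in Id2KO and 42.5 ± 5.2 in wt libraries. At E13.5 Col4a1 (4.75 CPM per kb) and Col27a1 (4.15) led in Lgr5+ cells, and Col27a1 (6.28) and Col4a1 (4.66) in EpCAM+ cells. In adult Lgr5+ cells no collagen gene had a mean above Col16a1 at 0.556 CPM per kb, and Col9a1 led in 6 of the 7 groups by part of the intestine.

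Against mesenchyme, the E11.5 EpCAM+ cells of wt embryos had lower levels of 7 of 10 fibrillar, 3 of 4 beaded filament, 5 of 9 fibril-associated and 2 of 3 transmembrane genes tested, while no type IV gene was called in wt cells and 1 in Id2KO cells. In wt cells 37 members were tested and 18 were lower and 1 higher in EpCAM+ cells than in mesenchyme, where 10.7% of all 15680 genes tested were lower and 11.5% higher. In Id2KO cells 20 of 37 were lower and none higher, against 10.8% and 13.2% of all genes. Here and below a gene is called at an adjusted p under 0.05 in edgeR's quasi-likelihood test with Benjamini-Hochberg adjustment over all genes tested. Members pass the filter on low counts when either group is high enough, so those at 0 in one tissue had to differ. The median log2 fold change of the tested members was -2.98 in wt cells, and in Id2KO cells -3.83, or -3.26 with genes at 0 set to their bound, against 0.01 over all genes in both.

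Type I, III and V collagens are the fibril-forming collagens of connective tissue. Col3a1 had 8.27, 4.57 and 9.3 CPM in wt EpCAM+ cells, against 474, 376 and 401 CPM in wt mesenchyme (log2 fold change -6.24 ± 0.40 SE, edgeR adjusted p = 9.1e-08). It had 0.743, 2.65 and 1.27 CPM in Id2KO EpCAM+ cells, against 593, 595 and 824 CPM in Id2KO mesenchyme (-8.79 ± 0.46, adjusted p = 8.5e-09). Epithelial and mesenchymal libraries did not overlap in either genotype. Col5a2 was at 5.79, 6.3 and 3.69 CPM in wt EpCAM+ cells, against 153, 112 and 134 CPM in wt mesenchyme (-5.09 ± 0.23). Col5a1, its partner chain in type V collagen, had a smaller fitted change: it had 44.1, 52.7 and 35.6 CPM in wt EpCAM+ cells, against 109, 98.4 and 101 CPM in wt mesenchyme (-1.65 ± 0.26, edgeR adjusted p = 0.00034). On the per-kilobase scale the level of Col5a1 over that of Col5a2 was 9.66 ± 1.16 in wt EpCAM+ cells and 0.885 ± 0.0977 in wt mesenchyme (SD, n = 3 each). Col1a1 and Col1a2, the chains of type I collagen, were lower, with log2 fold changes of -6.51 ± 0.72 and -7.06 ± 0.99 in wt EpCAM+ cells and of -9.22 ± 0.84 and -7.60 ± 1.02 in Id2KO EpCAM+ cells.

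The 3 main chains of type VI collagen, which builds beaded filaments around cells, were lower in epithelium of both genotypes. Col6a1 had 0.0288, 0.0313 and 0.0293 CPM in wt EpCAM+ cells, 1 read in each library, against 18.1, 13.8 and 32 CPM in wt mesenchyme (-9.72 ± 1.17, edgeR adjusted p = 4.4e-05). Col6a3 had no more than 0.634 CPM in any wt EpCAM+ library and 25.8 to 30 CPM in wt mesenchyme. The fibril-associated genes Col9a1, Col9a2, Col12a1 and Col14a1 were lower in both genotypes, with log2 fold changes of -7.50 to -4.08 in wt cells. The transmembrane collagen gene Col23a1 had 7.57, 4.17 and 3.6 CPM in wt EpCAM+ cells, against 55.2, 43.7 and 62 CPM in wt mesenchyme (-3.82 ± 0.47), and Col25a1 was lower as well (-2.98 ± 0.42). Col13a1 and Col16a1 had no read in Id2KO EpCAM+ cells, which puts them at least 29.9-fold and 30.4-fold lower than in Id2KO mesenchyme, from a floor of 3 counts per library. The call of Col16a1 was lost only when the EpCAM+ libraries with C1qa over 100 CPM were left out, 1 of 13 alternatives. That setting keeps only Id2KO EpCAM+ replicate 3.

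Type IV genes were not called in wt cells in either direction, 0 of the 6 tested. Col4a1 had 92.2, 104 and 81.6 CPM in wt EpCAM+ cells, against 84.4, 41.3 and 58.5 CPM in wt mesenchyme (0.17 ± 0.27, edgeR adjusted p = 0.73). Its ranges overlapped. Col4a2 (-0.22 ± 0.27), Col18a1 (0.03 ± 0.36), whose product is a basement membrane proteoglycan and the source of endostatin, and Col27a1 (0.67 ± 0.33) did not pass the test either. In Id2KO cells Col4a2 (-0.84 ± 0.27, adjusted p = 0.039; 0.054 with the replicate number as a block) and Col18a1 (-1.47 ± 0.37, adjusted p = 0.010) were lower in EpCAM+ cells than in mesenchyme. Over 14 alternatives their adjusted p ran from 0.023 to 0.23 and from 0.0013 to 0.21, and the calls were lost in 6 and 3 of them. Col2a1, the cartilage collagen gene, was the 1 member higher in wt EpCAM+ cells, with 8.24, 5.58 and 4.15 CPM against 0.644, 0.544 and 0.251 CPM in wt mesenchyme (3.18 ± 1.03, adjusted p = 0.040). It lost its call in 7 of 14 alternatives and Col22a1, called lower, in 9 of 14. With library totals in place of TMM scaling the log2 fold changes of wt cells shift up by a median of 0.43 over all genes.

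**Figure D2:**
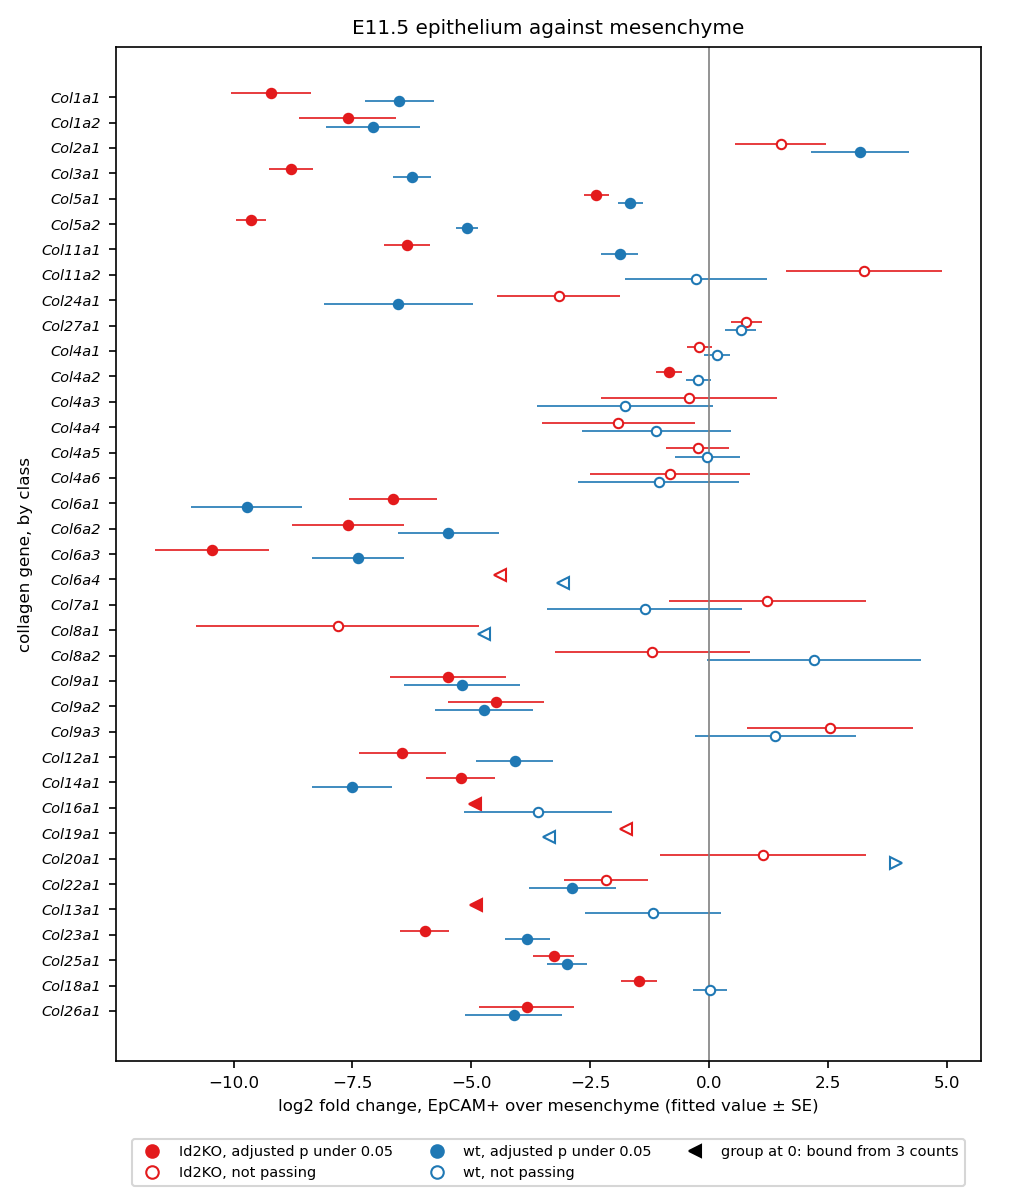
Fitted log2 fold change of each tested collagen gene in E11.5 EpCAM+ cells over mesenchyme, in Id2KO (red, upper of each pair) and wt cells (blue, lower), with standard error bars. Filled points have an adjusted p under 0.05, triangles are bounds from 3 counts where a group had no read, and most filled points lie left of 0 while Col4a1 and Col27a1 lie near it.

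Mesenchyme markers were present at low levels in the sorted EpCAM+ cells. The summed level of 13 mesenchyme and fibroblast genes was 53.9 to 155 CPM in Id2KO EpCAM+, 209 to 236 CPM in wt EpCAM+ and 589 to 724 CPM in Id2KO Lgr5+ cells, against a summed 1998 to 2421 CPM for Id2KO mesenchyme and 1531 to 1893 CPM for wt mesenchyme. Most of the sum in Id2KO Lgr5+ cells was Vim. Prrx1 was at 0 in all 3 Id2KO groups, the mesenchyme included, and Barx1 in wt EpCAM+ cells. Over genes with at least 5 CPM in mesenchyme, the median level in wt EpCAM+ cells was 6.39% of that in wt mesenchyme for 22 collagen genes and 1.47% for 11 mesenchyme genes. The collagen genes spanned 0.14% to 214%, from Col6a1 to Col27a1. Col1a1, Col1a2 and Col3a1 stood at 1.47%, 1.01% and 1.77%, and Col4a1 at 151%. These percentages are of CPM, and the red cell transcripts in the wt mesenchyme totals raise them. In the fits with TMM scaling given above, neither Col4a1 nor Col27a1 passed the test. The part of the mesenchyme genes in the collagen levels was not tested. Genes that act on collagen moved in both directions: of 18 modifying and secretion genes tested in wt cells 1 was higher and 8 lower in EpCAM+ cells. P4ha3, a prolyl 4-hydroxylase subunit that modifies collagen chains, was higher in EpCAM+ cells, at 54.9 ± 4.45 CPM against 3.39 ± 0.763 CPM in wt mesenchyme (3.59 ± 0.30, edgeR adjusted p = 1e-06). It was also higher in Id2KO EpCAM+ cells than in Id2KO mesenchyme (3.83 ± 0.30). Serpinh1, which encodes the collagen chaperone HSP47, was lower (45.6 ± 4.16 against 83.9 ± 16.7 CPM in wt mesenchyme, -1.30 ± 0.20). Nid1, a nidogen linking laminin to collagen IV, was lower in wt EpCAM+ cells, at 1.8 against 82.0 CPM in wt mesenchyme (-5.96 ± 1.34, edgeR adjusted p = 0.0089). It is 1 of 15 genes listed as other basement membrane genes and does not stand for that list. Of 12 processing and crosslinking genes 4 were lower, and of 8 collagen-binding matrix genes 6 were lower and 1 higher. Of 8 receptors tested 2 were lower, and of 10 breakdown genes listed 3 were lower.

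Loss of Id2 went with lower levels of 3 collagen genes in E11.5 EpCAM+ cells. Of 33 members tested, Col5a2, Col11a1 and Col18a1 were lower in Id2KO than in wt EpCAM+ cells and none was higher, where 0.785% of all 15153 genes tested were lower and 0.871% higher. The median log2 fold change was -0.52 over the tested members and 0.01 over all genes. Col11a1, a chain of type XI collagen found within fibrils, had 0.514, 0.558 and 0.138 CPM in Id2KO cells, against 8.87, 11.2 and 6.82 CPM in wt cells (-4.42 ± 0.59 SE, edgeR adjusted p = 0.0035), and kept its call in all 13 alternatives. Col5a2 had 0.229, 0.223 and 0.194 CPM in Id2KO cells, against 5.79, 6.3 and 3.69 CPM in wt cells (-4.54 ± 0.64, adjusted p = 0.0049). Its call was lost only without the 3 libraries over 100 CPM of C1qa, which keeps only Id2KO EpCAM+ replicate 3. The log2 fold change ran from -4.72 to -4.39 over 13 alternatives. The groups did not overlap for either gene.

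Col18a1 had 9.72, 10.7 and 12 CPM in Id2KO EpCAM+ cells, against 29.1, 40.5 and 28.3 CPM in wt EpCAM+ cells (-1.55 ± 0.26, edgeR adjusted p = 0.012). Every Id2KO library was below every wt library. The call was lost without wt replicate 2 (edgeR adjusted p = 0.076) and without the libraries over 100 CPM of C1qa, in 2 of 13 alternatives. The latter setting keeps only Id2KO EpCAM+ replicate 3. The log2 fold change ran from -1.65 to -1.37 over the alternatives. The most abundant members differed by less than the test could call: Col4a1 had 93.4, 56.3 and 75.5 CPM in Id2KO against 92.2, 104 and 81.6 CPM in wt EpCAM+ cells (-0.25 ± 0.20, adjusted p = 0.67). Col5a1 had 53.4, 30.3 and 30.8 CPM in Id2KO against 44.1, 52.7 and 35.6 CPM in wt EpCAM+ cells (-0.16 ± 0.25, adjusted p = 0.86). For Col4a2 (-0.59 ± 0.23, adjusted p = 0.31) and Col3a1 (-2.23 ± 0.60, adjusted p = 0.10) all Id2KO libraries were below all wt libraries, without passing the adjusted threshold. Of the lists of genes acting on collagen, 0 of 18 modifying and 0 of 11 processing genes were called. Dcn, a small proteoglycan that binds collagen fibrils and a mesenchyme marker, was lower at 0.400 CPM in Id2KO and 6.71 CPM in wt EpCAM+ cells (-4.03 ± 0.76, adjusted p = 0.024), and lost its call in 7 of 13 alternatives. It was the 1 mesenchyme marker of 10 tested that was called, and the median log2 fold change of those tested was -1.16. The summed level of the 13 mesenchyme genes was 53.9 to 155 CPM in Id2KO EpCAM+ and 209 to 236 CPM in wt EpCAM+ cells, without overlap, and 3 of 8 epithelial markers (Krt8, Krt19 and Cldn7) were higher in Id2KO EpCAM+ cells. Vim is part of this sum, at 23.5% of its mesenchyme mean in Id2KO and 76.2% in wt EpCAM+ cells. Red cell transcripts took a larger part of the CPM in wt mesenchyme, so the denominators of these percentages are unlike. The part of these markers in the lower collagen levels was not tested.

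**Figure D3:**
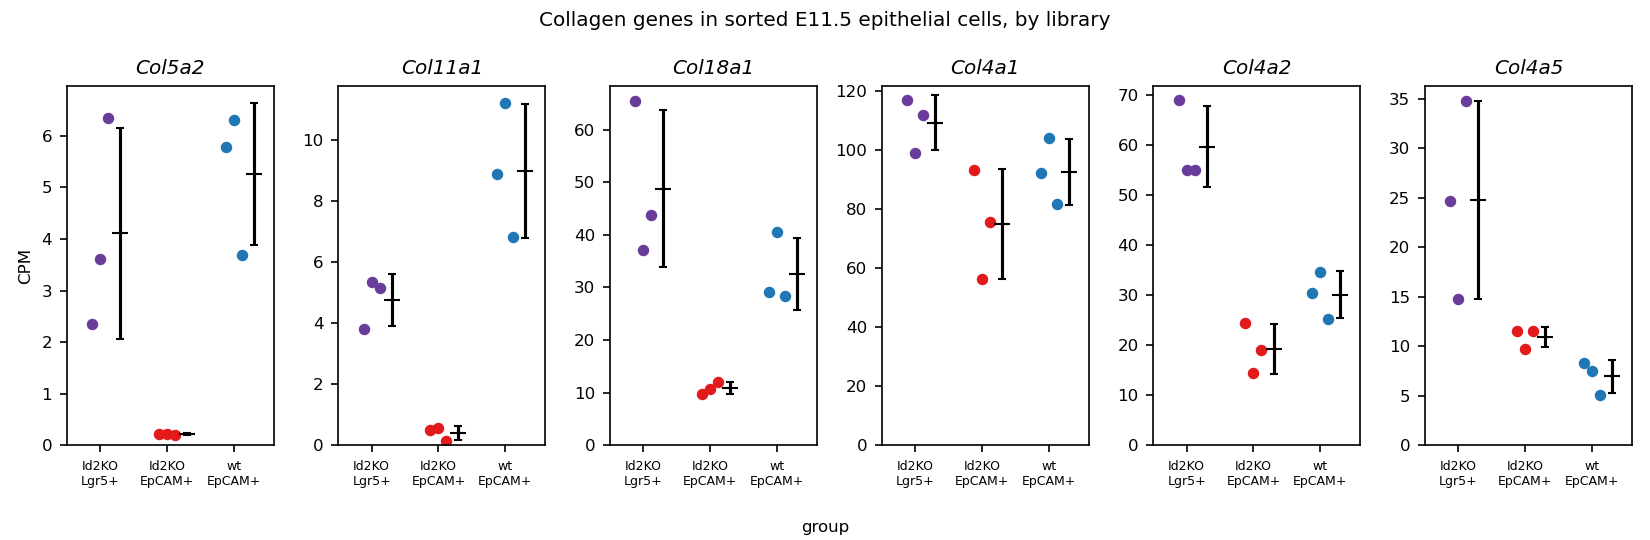
CPM of 6 collagen genes in each E11.5 epithelial library (points), with the group mean and SD beside them. Col5a2, Col11a1 and Col18a1 lie lower in Id2KO EpCAM+ cells than in Id2KO Lgr5+ and wt EpCAM+ cells, Col4a2 is highest in Id2KO Lgr5+ cells, and the Col4a1 values of Id2KO EpCAM+ and wt EpCAM+ cells overlap.

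In the mesenchyme no collagen gene was called between Id2KO and wt among 34 tested, where 0.881% of all 13734 genes were called in either direction. At an unadjusted p under 0.05 there were 4 members (Col5a1, Col6a2, Col9a1 and Col12a1), and DESeq2 called 1. The median log2 fold change of the members was 0.14, and 0.01 over all genes. Col3a1 had 593, 595 and 824 CPM in Id2KO mesenchyme, against 474, 376 and 401 CPM in wt mesenchyme (0.32 ± 0.19, edgeR adjusted p = 0.87). Col5a1 had 186, 154 and 241 CPM in Id2KO mesenchyme, against 109, 98.4 and 101 CPM in wt mesenchyme (0.55 ± 0.20, adjusted p = 0.51). Col12a1, a fibril-associated collagen gene, had 37.6, 29.2 and 43.7 CPM in Id2KO mesenchyme, against 16.4, 6.3 and 6.51 CPM in wt mesenchyme (1.55 ± 0.41, adjusted p = 0.18). For these genes the CPM ranges did not overlap, but CPM in the wt mesenchyme also carried the red cell transcripts given above, and library totals in place of TMM scaling shift all genes by a median of 0.38 towards Id2KO. Col5a2 stood at -0.00 ± 0.19 on the log2 scale.

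The difference between the genotype effect in EpCAM+ cells and that in mesenchyme was tested as an interaction, in which 0.172% of all genes were lower and 0.421% higher. Of 37 members 3 were lower and none higher. The effect in EpCAM+ cells differed from that in mesenchyme by -4.55 ± 0.34 on the log2 scale for Col5a2 (edgeR adjusted p = 3.1e-05) and by -4.47 ± 0.58 for Col11a1 (adjusted p = 0.0029), and both kept their calls in all 19 alternatives. For Col3a1 it was -2.55 ± 0.48 (adjusted p = 0.027), which was lost with the replicate block (adjusted p = 0.10) and in 9 of 19 alternatives in all, over a range of 6.5e-06 to 0.10. Dcn (-3.90 ± 0.63, adjusted p = 0.0098) and Ddr2, a receptor tyrosine kinase for fibrillar collagen (-4.55 ± 0.88, adjusted p = 0.031, lost in 10 of 19 alternatives), were lower in the same test. This test shares its EpCAM+ libraries with the Id2KO over wt comparison.

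Within the Id2KO epithelium, Lgr5+ cells had higher levels of 4 collagen genes than EpCAM+ cells. Of 33 members tested, Col4a2, Col5a2, Col11a1 and Col18a1 were higher and none lower, where 1.58% of all genes were higher and 1.56% lower. The median log2 fold change was 1.09 over the tested members and -0.01 over all genes. This comparison and the Id2KO over wt comparison share the Id2KO EpCAM+ libraries, so low values there enter both. Col18a1 had 65.5, 37.1 and 43.8 CPM in Id2KO Lgr5+ cells, against 9.72, 10.7 and 12 CPM in Id2KO EpCAM+ cells (2.14 ± 0.26 SE, edgeR adjusted p = 0.0014). Col4a2 had 69, 54.9 and 55 CPM in Id2KO Lgr5+ cells, against 24.4, 14.4 and 19.1 CPM in Id2KO EpCAM+ cells (1.59 ± 0.24, adjusted p = 0.0045). Neither gene's groups overlapped, and both calls were kept in all 13 alternatives.

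Col5a2 had 2.36, 3.62 and 6.35 CPM in Id2KO Lgr5+ cells, against 0.229, 0.223 and 0.194 CPM in Id2KO EpCAM+ cells (4.20 ± 0.63, edgeR adjusted p = 0.0046). Its call was lost only without the libraries over 100 CPM of C1qa, which keeps only Id2KO EpCAM+ replicate 3. Col11a1 had 3.79, 5.34 and 5.13 CPM in Id2KO Lgr5+ cells, against 0.514, 0.558 and 0.138 CPM in Id2KO EpCAM+ cells (3.52 ± 0.57, adjusted p = 0.0065; lost with the compared groups alone, 0.051, in a range of 3.9e-08 to 0.051). Every Lgr5+ library was above every EpCAM+ library for both. Col4a1 had 117, 99 and 112 CPM in Id2KO Lgr5+ cells, against 93.4, 56.3 and 75.5 CPM in Id2KO EpCAM+ cells, which did not pass (0.50 ± 0.20, adjusted p = 0.25). Col5a1 (-0.05 ± 0.25) and Col27a1 (-0.01 ± 0.21) were close to equal in fitted value. Col16a1 had 1.03, 0.689 and 1.69 CPM in Id2KO Lgr5+ cells and no read in Id2KO EpCAM+ cells, at least 13.5-fold higher by the 3-count floor, with an adjusted p of 0.054 in edgeR.

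Few of the genes that act on collagen were called in the same comparison. Lepre1, a prolyl 3-hydroxylase of collagen chains, averaged 29.5 CPM in Id2KO Lgr5+ and 12.1 CPM in Id2KO EpCAM+ cells (1.25 ± 0.22, edgeR adjusted p = 0.0095), the 1 of 18 modifying and secretion genes called. Its call was lost without the libraries over 100 CPM of C1qa, which keeps only Id2KO EpCAM+ replicate 3. Of 11 processing and crosslinking genes 2 were higher: Adamts3, a procollagen N-proteinase, at 7.10 against 0.317 CPM and Loxl2, a lysyl oxidase that acts on type IV collagen, at 21.5 against 6.04 CPM in Id2KO EpCAM+ cells. Sparc, a matrix protein that binds collagen, was at 191 CPM in Id2KO Lgr5+ against 54.4 CPM in Id2KO EpCAM+ cells (1.8 ± 0.36, adjusted p = 0.021). Adamts3 and Sparc lost their calls in 5 and Loxl2 in 6 of 13 alternatives. Of 10 mesenchyme markers tested Vim (635 against 82.1 CPM, 2.93 ± 0.34) and Dcn (7.66 against 0.400 CPM, 4.24 ± 0.76) were higher in Id2KO Lgr5+ cells, and the summed level of the whole list was 589 to 724 CPM there against 53.9 to 155 CPM. Endothelial genes summed to 0.697 CPM at most in Id2KO Lgr5+ cells, with Pecam1, Cdh5, Kdr and Cldn5 at 0, against 1.43 to 9.48 CPM in Id2KO EpCAM+ cells. The macrophage list reached at most 2.39 CPM in Id2KO Lgr5+ cells, against a range of 0.553 to 905 CPM for Id2KO EpCAM+ cells. The part of the mesenchyme markers in these collagen levels was not tested.

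Set against wt EpCAM+ cells, Id2KO Lgr5+ cells were higher in 2 type IV genes. Of 33 members tested Col4a2 and Col4a5 were higher and none lower, where 1.68% of all genes were higher and 1.36% lower, and the median was 0.25 over the members and -0.01 over all genes. Col4a5 had 24.7, 14.8 and 34.8 CPM in Id2KO Lgr5+ cells, against 8.27, 7.49 and 5.12 CPM in wt EpCAM+ cells (1.85 ± 0.33, edgeR adjusted p = 0.013). It lost its call without wt replicate 2 (0.059), wt replicate 3 (0.068) or Lgr5+ replicate 3 (0.068), in a range of 2.7e-05 to 0.068. Col4a2 had 69, 54.9 and 55 CPM in Id2KO Lgr5+ cells, against 30.4, 34.7 and 25.2 CPM in wt EpCAM+ cells (1.0 ± 0.24, adjusted p = 0.045), and lost its call when any 1 of the 6 libraries was left out (0.10 to 0.18). Neither gene's groups overlapped. Col4a5 is X-linked, and the libraries differed in Xist and Ddx3y as given above, whose part was not tested. Col18a1 (0.59 ± 0.25, adjusted p = 0.26), Col5a2 (-0.34 ± 0.54) and Col11a1 (-0.90 ± 0.51) did not pass the test against wt EpCAM+ cells. Lamb3, a laminin chain of epithelial basement membranes, was higher at 33.4 against 4.15 CPM in wt EpCAM+ cells (3.0 ± 0.51, adjusted p = 0.0090). Lepre1 was higher at 29.5 against 14.7 CPM (1.0 ± 0.22, adjusted p = 0.030; lost in 7 of 13 alternatives). Genotype and sort differ together in this comparison and cannot be told apart; wt Lgr5+ cells of E11.5 were not analysed here.

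The ratio of Col4a1 to Col4a2, whose products join in the common trimer of type IV collagen, separated the E11.5 epithelial groups. Per kilobase it was 1.5, 1.6 and 1.81 in Id2KO Lgr5+ cells, 3.39, 3.47 and 3.51 in Id2KO EpCAM+ cells, and 2.69, 2.67 and 2.87 in wt EpCAM+ cells. None of the 3 groups overlapped another. The ratio was taken up after these values were seen, so they are a description. With 3 libraries in each group an exact permutation could not give a p under 0.1, and no test is given. The ratio was 3.64 ± 1.85 in E13.5 Lgr5+ and 3.95 ± 0.904 in E13.5 EpCAM+ cells (SD, n = 4 each; exact permutation p = 0.54), and 2.27 ± 0.512 in Id2KO and 2.07 ± 0.648 in wt mesenchyme (n = 3 each; exact permutation p = 0.5). The mesenchyme comparison could not give a permutation p under 0.1, and the E13.5 one none under 0.029. E13.5 EpCAM+ cells against E11.5 wt EpCAM+ cells gave an exact permutation p of 0.086 (two-sided), or 0.15 adjusted over the 6 ratio comparisons computed. Those 6 include the comparisons between the E11.5 epithelial groups. Because the gene models of Col4a1 and Col4a2 meet at their starts on opposite strands and the strand setting of the counting is not given in the sources used here, reads in the overlap cannot be assigned with certainty.

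**Figure D4:**
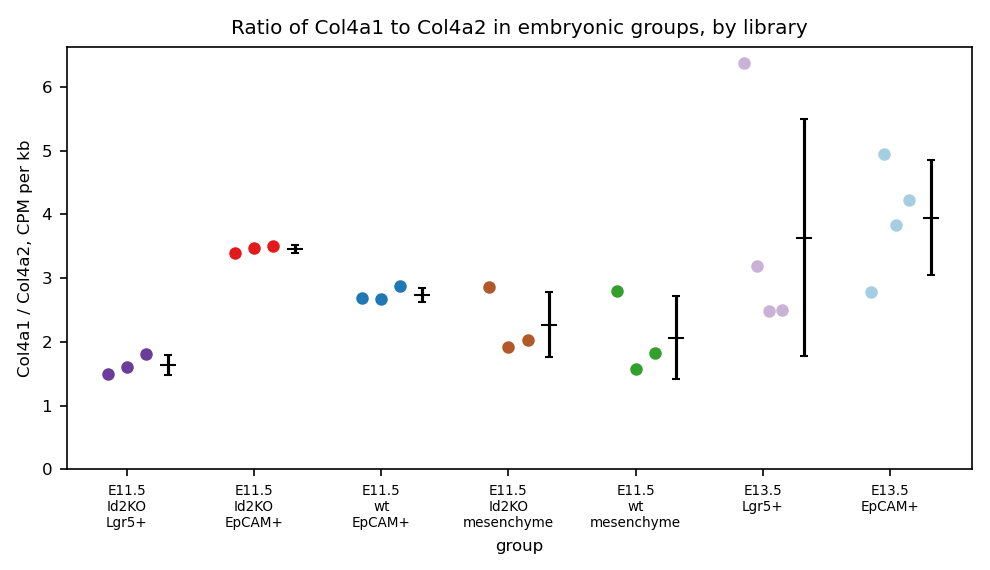
Ratio of Col4a1 to Col4a2, each as CPM per kb, in every embryonic library (points), with the group mean and SD beside them. Id2KO Lgr5+ libraries of E11.5 sit between 1.5 and 1.81, below the Id2KO EpCAM+ libraries at 3.39 to 3.51 and the wt EpCAM+ libraries at 2.67 to 2.87.

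At E13.5 no collagen gene was called between Lgr5+ and EpCAM+ cells among 22 tested, where 1.75% of all 13355 genes were called in either direction. At an unadjusted p under 0.05 there were 4 (Col3a1, Col4a4, Col24a1 and Col27a1), and DESeq2 called 0. The median was 0.21 over the members and 0.00 over all genes. Col27a1 had 52.2, 50.4, 50.4 and 63.2 CPM in Lgr5+ cells, against 51.5, 79, 83.6 and 113 CPM in EpCAM+ cells (-0.59 ± 0.22, edgeR adjusted p = 0.34). Col3a1 had 22.3, 14.4, 13.9 and 21.2 CPM in Lgr5+ cells, against 10.2, 7.05, 6.7 and 17.9 CPM in EpCAM+ cells (0.79 ± 0.34, adjusted p = 0.45). Col4a1 had 53.2, 29.5, 27.1 and 32 CPM in Lgr5+ cells, against 27.1, 39.6, 30.2 and 42.3 CPM in EpCAM+ cells (0.04 ± 0.24, adjusted p = 0.99). The groups overlapped for all 3 genes. Within the pairs given by the replicate numbers Col3a1 was higher in Lgr5+ cells in 4 of 4, and with the replicate block it was not called either (0.88, adjusted p = 0.12; 0.12 to 0.77 over 13 alternatives). The mesenchyme marker Vim was higher in E13.5 Lgr5+ cells, at 360 ± 65.0 against 96.3 ± 32.1 CPM in EpCAM+ cells (1.92 ± 0.20, adjusted p = 0.00029), the 1 of 7 mesenchyme markers tested that was called.

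Between E11.5 and E13.5 the EpCAM+ epithelium changed in 9 of 24 tested collagen genes, with 2 higher and 7 lower at E13.5 than in E11.5 wt cells, where 19.3% of all 14467 genes were higher and 21.1% lower. The share of members called was thus close to that of all genes. The median was -0.53 over the members and -0.04 over all genes. Col27a1 was the abundant gene that rose: it had 51.5, 79, 83.6 and 113 CPM at E13.5, against 18.5, 23.6 and 22.9 CPM at E11.5 (2.12 ± 0.27 SE, edgeR adjusted p = 5.1e-05). Col24a1, the other fibrillar gene of the same branch of the family, had 0.215, 2.03, 1.73 and 1.51 CPM at E13.5, against 0.202, 0.0313 and 0 CPM at E11.5 (4.30 ± 1.5, adjusted p = 0.037), and lost its call in 4 of 9 alternatives (0.0041 to 0.14). The stages did not overlap for either gene, by a narrow margin for Col24a1.

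Among the 7 that fell, Col5a1 had 2.28, 2.78, 1.6 and 4.32 CPM at E13.5, against 44.1, 52.7 and 35.6 CPM at E11.5 (-3.81 ± 0.33, edgeR adjusted p = 2.3e-06). Col18a1 had 6.52, 1.64, 0.967 and 0.705 CPM at E13.5, against 29.1, 40.5 and 28.3 CPM at E11.5 (-3.53 ± 0.62, adjusted p = 0.00069). Col11a1 had 1.91, 0, 0.1 and 0.128 CPM at E13.5, against 8.87, 11.2 and 6.82 CPM at E11.5 (-3.84 ± 1.13, adjusted p = 0.017). No E13.5 library reached an E11.5 library for these genes. The main type IV chains were lower too. Col4a1 had 27.1, 39.6, 30.2 and 42.3 CPM at E13.5, against 92.2, 104 and 81.6 CPM at E11.5 (-1.22 ± 0.20, adjusted p = 0.00034). Col4a2 had 8.64, 7.11, 6.97 and 8.87 CPM at E13.5, against 30.4, 34.7 and 25.2 CPM at E11.5 (-1.72 ± 0.25, adjusted p = 0.00014). Col2a1 (-2.82 ± 0.88) and Col23a1 (-2.19 ± 0.76) also fell, and lost their calls in 2 and 4 of 12 alternatives. Col3a1 did not pass (0.70 ± 0.43, adjusted p = 0.22), nor did Col5a2 (-0.57 ± 0.50).

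Of 16 modifying and secretion genes tested between these stages 2 were higher and 6 lower at E13.5. P4ha3 fell to 4.12 ± 0.639 CPM at E13.5, against 54.9 ± 4.45 CPM at E11.5 (-3.53 ± 0.24, edgeR adjusted p = 3.1e-07), and Leprel4, a component of the collagen hydroxylation complex, to 4.78 against 39.9 CPM at E11.5 (-2.87 ± 0.26). Lama2, the laminin α2 chain, fell to 0.856 against 21.8 CPM at E11.5 (-4.48 ± 0.47), the 1 called of 14 other basement membrane genes. Of 6 receptor genes tested 2 were higher, among them Itga2, the α chain of a collagen-binding integrin, at 5.75 CPM at E13.5 against 0.242 CPM at E11.5 (4.78 ± 1.08, adjusted p = 0.0036). Of 8 processing and crosslinking genes 1 was higher and 2 lower, and of 7 breakdown genes 1 was higher and 3 lower. Of 9 mesenchyme markers Vim was lower, and all 6 macrophage markers were lower at E13.5. Stage and the pooling of embryos cannot be told apart here, and library totals in place of TMM scaling shift all genes by a median of -0.24.

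**Figure D5:**
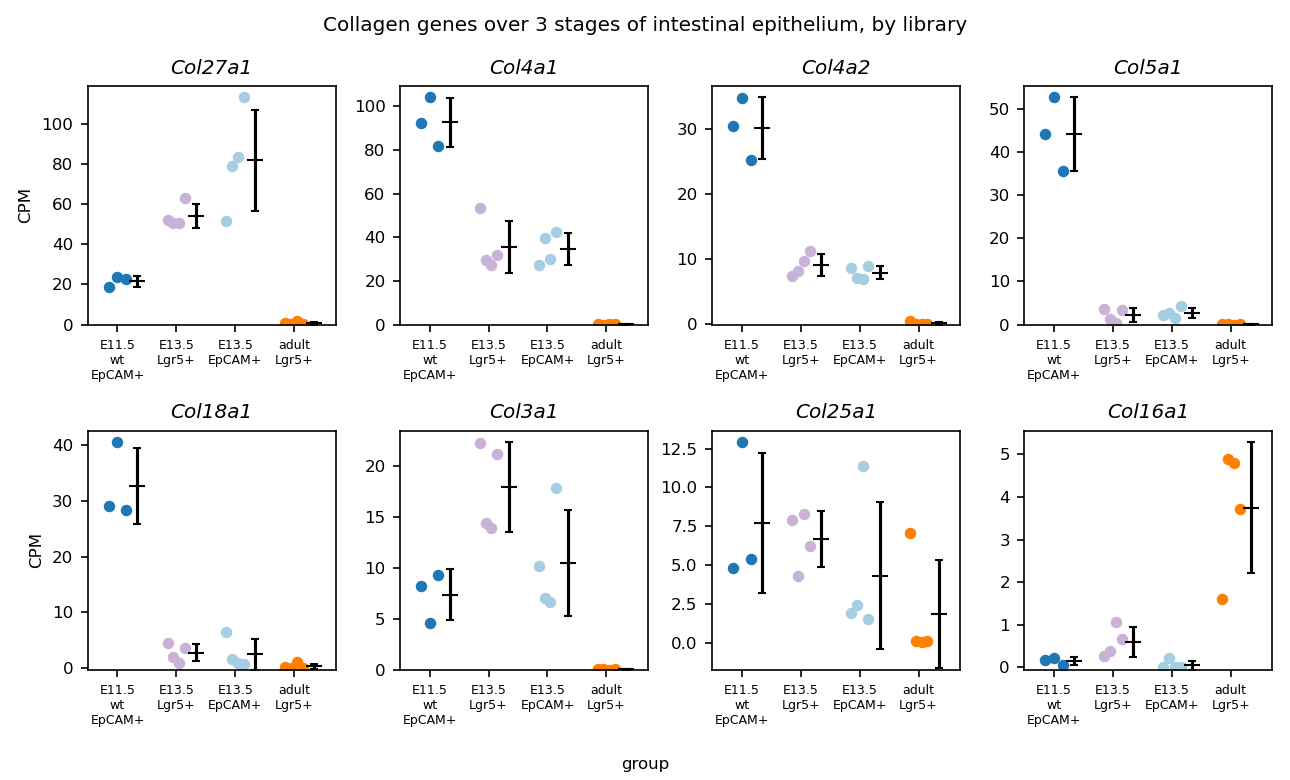
CPM of 8 collagen genes in each library of E11.5 wt EpCAM+, E13.5 Lgr5+, E13.5 EpCAM+ and adult Lgr5+ cells (points), with the group mean and SD beside them. Col27a1 is higher at E13.5 than at E11.5, Col5a1 and Col18a1 are low from E13.5 on, and Col16a1 is the gene shown here with its highest values in adult cells.

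Adult Lgr5+ stem cells had low levels of the collagen genes that were abundant in the embryo. Of 15 members tested against E13.5 Lgr5+ cells 7 were lower and 1 higher, where 17.3% of all 13144 genes were lower and 18.6% higher, and 29 members had too few counts for the test. The median was -2.92 over the tested members and 0.02 over all genes. Col4a1 had 0.426, 0.0973, 0.129 and 0.211 CPM in adult cells, against 53.2, 29.5, 27.1 and 32 CPM at E13.5 (-7.28 ± 0.52 SE, edgeR adjusted p = 5.4e-07). Col27a1 had 0.639, 0.162, 1.93 and 0.351 CPM in adult cells, against 52.2, 50.4, 50.4 and 63.2 CPM at E13.5 (-6.07 ± 0.61, adjusted p = 1.1e-05). Col3a1 had 0.107, 0.0324, 0 and 0.0351 CPM in adult cells, against 22.3, 14.4, 13.9 and 21.2 CPM at E13.5 (-8.53 ± 0.72, adjusted p = 2.4e-06). The stages lay far apart for all 3. Col4a2 (-5.71 ± 0.94), Col1a1 (-4.56 ± 1.29), Col5a1 (-4.53 ± 1.28) and Col11a1 (-4.24 ± 1.33) were lower too, and Col11a1 lost its call in 5 of 13 alternatives (0.0041 to 0.069).

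Col16a1, a fibril-associated collagen gene, was the member higher in adult cells, with 1.6, 4.9, 4.79 and 3.72 CPM, against 0.273, 0.391, 1.06 and 0.666 CPM in E13.5 Lgr5+ cells (2.72 ± 0.82, edgeR adjusted p = 0.021). All adult libraries were above all E13.5 libraries. The call was lost in 3 of 13 alternatives (0.0021 to 0.054). Col4a3, a chain of the α3α4α5 type IV trimer of kidney and lung, had 5.22, 1.52, 2.38 and 8.89 CPM in adult cells, against 1.94, 0.0195, 0.483 and 1.51 CPM at E13.5, and did not pass (2.23 ± 1.06, adjusted p = 0.13). Col9a1 had 0.107, 5.22, 0.129 and 2.04 CPM in adult cells, against 0.0547, 3.05, 0.386 and 0 CPM in E13.5 Lgr5+ cells, which overlapped (1.30 ± 1.58, adjusted p = 0.56). Beside these, the summed mesenchyme markers were at 2.85 to 4.79 CPM in adult and 321 to 465 CPM in E13.5 Lgr5+ cells, and 4 of the 6 tested were lower. Most of the E13.5 sum was Vim. The part of these markers was not tested. Of 14 modifying and secretion genes 1 was higher and 4 lower in adult cells, of 4 processing and crosslinking genes 3 lower, and of 13 other basement membrane genes 2 higher and 7 lower. Sparc averaged 0.186 CPM in adult and 56.9 CPM in E13.5 Lgr5+ cells (-8.15 ± 0.45), and Lama1, a laminin chain of embryonic basement membranes, 0.172 and 29.3 CPM (-7.33 ± 0.52). Of 6 receptor genes tested Itga1 and Itga2 were higher and Itgb1 lower in adult cells. Itga1, the α chain of a collagen-binding integrin, was at 27.8 CPM in adult and 1.14 CPM in E13.5 Lgr5+ cells (4.68 ± 1.01, edgeR adjusted p = 0.0041).

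Along the adult small intestine 9 members had enough counts to be tested, and none was called in any of 6 comparisons, by edgeR or by DESeq2. The share of all 13436 genes called was 1.5% for Id2KO over wt in the anterior, 3.91% in the middle and 5.16% in the posterior part, 4.81% for posterior over anterior in wt, and 2.0% for the same in Id2KO. It was 0% for Tomato+ Lgr5+ over Lgr5+ libraries of the posterior Id2KO part. The labels do not give the Tomato status of the latter. At an unadjusted p under 0.05 there was 1 member, Col16a1 in the posterior part, with 2.02 and 0.713 CPM in libraries labelled Id2KO and no read in those labelled wt (edgeR adjusted p = 0.19). Col9a1, a chain of type IX collagen, was the most evenly present, with 3.72 and 3.51 CPM in middle libraries labelled Id2KO against 1.28 and 1.23 CPM in those labelled wt (1.49 ± 0.70, adjusted p = 0.29), and 1.89 and 0.737 CPM in anterior libraries labelled Id2KO against 2.45 and 3.69 CPM in those labelled wt (-1.24 ± 0.70, adjusted p = 0.46). In the posterior part Col9a1 had 3.02 and 4.51 CPM in Tomato+ cells labelled Id2KO. It had 1.33 and 2.19 CPM in cells labelled Id2KO without a Tomato label and 1.91 and 1.15 CPM in those labelled wt. Col4a3 had 2.71 and 0.988 CPM in middle libraries labelled Id2KO, against 0.512 and 0.904 CPM in those labelled wt. Col9a3, the partner of Col9a1 in type IX collagen, reached 8.67 CPM in 1 middle library labelled Id2KO and 0.212 CPM in the other.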

How the data were processed

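The deposited files hold raw read counts per gene, whole numbers from HTSeq; per the submitters' processing notes, the tools were HTSeq 0.6.1p1, STAR 2.3.1z13, DESeq2 1.6.3, bcl2fastq 1.8.4 and SAMtools 1.2, with build mm9. Per the labels' protocols, cDNA from 250 sorted cells (SMARTer v3.0) was amplified for 15 cycles and sequenced as single-end 50 bp reads, so PCR copies are counted and intervals and floors cover counting error only. The 5 category rows of HTSeq, 20.46% to 59.68% of a library's reads, were left out of library sizes and tests. CPM (counts per 1000000) was computed over the remaining gene counts. No replicate pair of 40 was identical (chi-square per degree of freedom 23.7 to 238.4).

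Tests used edgeR 4.0.16 in R 4.3.3 (filterByExpr, TMM, robust glmQLFit, glmQLFTest), with Benjamini-Hochberg adjustment over all genes tested and a threshold of 0.05. The 3 E11.5 epithelial groups shared 1 fit, the EpCAM+ and mesenchyme groups of both genotypes another, and the 7 adult groups by part of the intestine another; other comparisons used the compared groups alone. SE is the absolute log2 fold change over the square root of F. The fit functions were run on simulated counts for some of the comparisons, with the same spread set for every gene. Changes were planted in the more abundant genes only, and the shared fits were not simulated. Alternatives were RLE size factors, library totals, no filter, DESeq2 1.42.0, the replicate block, the compared groups alone, leaving out each library, leaving out EpCAM+ libraries over 100 CPM of C1qa, and removing red cell genes.

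Lengths are merged exons of GENCODE vM21. The members and lists were chosen with earlier results of these data known. The rule for naming was, per comparison, up to 8 called collagen genes with the largest change and a mean of at least 1 CPM in a group, the 3 with the highest mean, and up to 3 genes per list with the smallest p; other members named were chosen after their values were seen. The replicate numbers are taken to pair Id2KO Lgr5+ with Id2KO EpCAM+ libraries (correlations of deviations 0.395, 0.455 and 0.215), Id2KO EpCAM+ with Id2KO mesenchyme (0.214, 0.349 and 0.122) and E13.5 Lgr5+ with E13.5 EpCAM+ (0.102, 0.463, 0.229 and 0.260), each over 0.1 as required. They were 0.108, -0.005 and -0.053 for wt EpCAM+ with wt mesenchyme. For Id2KO EpCAM+ with wt EpCAM+, which are different embryos, they were 0.111, -0.074 and 0.377. The main fits used groups only, and pairs entered only as the replicate block. That adult animals were separate is not stated per library, so p-values there measure the spread between these samples. A result for 1 gene of the lists is not reported here.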

Additional observations from a re-analysis of the deposited data

Results flagged for a closer look

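Among 37 sets of 4 libraries with a mean of at least 1 CPM, 6 had 1 library far from the others, where chance gives about 1 in 20. In E13.5 Lgr5+ cells replicate 4 stood apart in Col1a1 at 6.87 CPM (others 2.76 to 3.19), in Col5a2 at 6.66 CPM (others 0.0273 to 0.58) and in Col27a1 at 63.2 CPM (others 50.4 to 52.2). Col18a1 was at 6.52 CPM in E13.5 EpCAM+ replicate 1, against 0.705 to 1.64 in the others. Col25a1 was at 11.4 CPM in E13.5 EpCAM+ replicate 3 (others 1.54 to 2.42) and at 7.03 CPM in adult Lgr5+ replicate 1 (others 0.0321 to 0.105).

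The effect of the genotype differed between EpCAM+ cells and mesenchyme, by the interaction term in edgeR, for Col3a1 (-2.55), Col5a2 (-4.55) and Col11a1 (-4.47). Col5a2 and Col11a1 were lower in Id2KO than in wt EpCAM+ cells, and in mesenchyme their log2 fold changes were 0.00 and 0.04.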

How the results depend on the processing

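Several counts of collagen genes called changed with the processing. Id2KO over wt EpCAM+ cells gave 3, and fewer when the EpCAM+ libraries with C1qa over 100 CPM were left out. That setting keeps only Id2KO EpCAM+ replicate 3. Id2KO Lgr5+ over Id2KO EpCAM+ cells gave 7 by DESeq2, in place of 4. Id2KO over wt mesenchyme gave 1 by DESeq2, in place of 0. Besides these counts, the summed level in wt EpCAM+ cells as a percent of wt mesenchyme was 17.1 with red cell genes removed from the totals, in place of 22.7. Leaving out each library in turn gave counts of 0 to 1 for Id2KO Lgr5+ over wt EpCAM+ cells and 0 to 1 for Id2KO over wt mesenchyme. The cause was not tested.

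Some values that were not called changed sign. Col5a1 in Id2KO Lgr5+ over Id2KO EpCAM+ cells was 0.01 with the replicate block, 0.24 without the libraries over 100 CPM of C1qa and -0.21 to 0.30 over left-out libraries. Col5a2 in Id2KO over wt mesenchyme was 0.36 by library totals, 0.00 without a filter, 0.00 with red cell genes removed and -0.13 to 0.13 over left-out libraries. Over left-out libraries Col5a1 in Id2KO over wt EpCAM+ cells ran from -0.50 to 0.01, Col4a1 in wt EpCAM+ over mesenchyme from -0.04 to 0.49 and Col4a1 in E13.5 Lgr5+ over EpCAM+ cells from -0.21 to 0.15. In adult parts, with 1 library left in a group, which is assumed to vary like the others, Col4a3 ran from -1.81 to 0.93 (anterior, Id2KO over wt), -0.03 to 1.70 (posterior, Id2KO over wt), -2.20 to 0.56 (wt, posterior over anterior), -0.39 to 1.10 (Id2KO, posterior over anterior) and -1.64 to 0.95 (posterior Id2KO, Tomato+ Lgr5+ over Lgr5+ cells). Col9a3 ran from -0.97 to 9.22 (middle, Id2KO over wt), and Col9a1 from -0.22 to 0.60 (posterior, Id2KO over wt) and -0.11 to 1.23 (Id2KO, posterior over anterior).

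With the replicate number as a block, 77 of 81 collagen values kept their direction and side of the threshold, 3 were no longer called and 1 reversed. These 81 are the collagen values chosen by the naming rule. With RLE size factors and by DESeq2 all 81 kept both, but DESeq2 also called members outside the 81, among them Col3a1 in Id2KO over wt EpCAM+ cells, Col12a1 in Id2KO over wt mesenchyme and Col16a1 in Id2KO Lgr5+ over Id2KO EpCAM+ cells.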
